A study of Homo sapiens with 60 samples.

Results

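Citri Unshius Pericarpium extract was compared with Cimicifugae Rhizoma extract, each given to SW1783 cells at the same high dose of 500 µg/mL for 24 h. The libraries were chosen by label, as the high-dose groups of these extracts, and they are 6 of the 60 libraries of the series, 3 for each extract. SW1783 is an established human astrocytoma line. Citri Unshius Pericarpium is the dried peel of the mandarin Citrus unshiu, Cimicifugae Rhizoma is the dried rhizome of Cimicifuga plants, and both were given as water extracts. The series measured messenger RNA after several herbs and formulas at 3 doses. The same extracts at 100 and 20 µg/mL, with 3 libraries per group, gave the comparisons at the medium and low dose. The vehicle group of 3 libraries received DMSO, for which the labels give 0.1% and the design text of the series 2%. The labels give no DMSO value for the extracts. Both extracts carry the code set 5 in their column names and the vehicle another one, so for differences from the vehicle the treatment and the set cannot be told apart. The replicates are numbered, but whether each had its own culture is not stated. P-values then measure only the spread between libraries within groups, which may be technical. This spread was pooled over all 57 libraries of the 19 groups in the fit. The 6 compared libraries are only a part of these.

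The 6 libraries held 19.5 to 25.9 M counts (mega), against 18.9 to 36.4 M over the series. 1 library stood apart, the one labelled Cimicifugae high replicate 3. Its log2 values deviated from its group's mean by a root mean square of 0.152 over 11277 genes, and those of a library of the low Citri dose, replicate 3, by 0.140. The other libraries of the groups used here deviated by at most 0.102. Mitochondrially encoded genes took 7.69% of the counts in that Cimicifugae library and 5.14% to 5.97% in the other 5. Each result below is therefore also given without it where that changes the result. Of 10 astrocyte markers, GFAP, AQP4, S100B, ALDH1L1, SLC1A2 and FABP7 were under 1 CPM (counts per 1000000 counts) in all 6 libraries, with FABP7 at 0. The other 4 were expressed, with GJA1 at 241 CPM with Citri and 224 CPM with Cimicifugae, SOX9 at 60.1 and 63.1 CPM, GLUL at 69.0 and 67.6 CPM and SLC1A3 at 33.5 and 32.5 CPM in the same order (means, n = 3 each). The 10 mesenchymal and fibroblast markers summed to 14164 to 14530 CPM with Citri, 13689 to 15022 CPM with Cimicifugae and 15770 to 16097 CPM in the vehicle.

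Bone morphogenetic proteins (BMPs) are secreted ligands whose receptors phosphorylate SMAD transcription factors, and the inhibitor-of-differentiation genes ID1 to ID4 are their best known direct targets. TXNIP and its relative ARRDC4 are arrestin-like proteins that restrain glucose uptake and are switched on by the glucose-sensing factor pair MondoA and MLX. NRF2 drives genes that handle oxidants, electrophiles, iron and heme. The aryl hydrocarbon receptor (AhR) drives enzymes such as CYP1A1 and CYP1B1 when it binds plant and environmental ligands. ATF6 and XBP1 drive the chaperones of the endoplasmic reticulum (ER), through an element known as the ER stress element.

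The promoters below are shown because they belong to genes whose level differed between the extracts and because they hold a motif searched for their pathway. They run from 250 bases before to 50 bases after the RefSeq start (GRCh38.p14), 5′ to 3′ on the gene's strand, with the matched letters in capitals. TXNIP holds the carbohydrate response element, while ARRDC4 holds an E-box but no match to that element. HSPA5 and CALR hold the ER stress element, which in CALR reads on the other strand. SMAD6 holds the SMAD palindrome.
TXNIP, chr1:145996530-145996829, minus strand: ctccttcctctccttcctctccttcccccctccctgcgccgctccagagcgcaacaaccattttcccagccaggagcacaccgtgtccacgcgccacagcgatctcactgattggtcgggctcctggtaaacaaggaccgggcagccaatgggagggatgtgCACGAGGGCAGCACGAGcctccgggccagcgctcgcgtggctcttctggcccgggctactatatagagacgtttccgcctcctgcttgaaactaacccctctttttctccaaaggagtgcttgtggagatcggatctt
ARRDC4, chr15:97960453-97960752, plus strand: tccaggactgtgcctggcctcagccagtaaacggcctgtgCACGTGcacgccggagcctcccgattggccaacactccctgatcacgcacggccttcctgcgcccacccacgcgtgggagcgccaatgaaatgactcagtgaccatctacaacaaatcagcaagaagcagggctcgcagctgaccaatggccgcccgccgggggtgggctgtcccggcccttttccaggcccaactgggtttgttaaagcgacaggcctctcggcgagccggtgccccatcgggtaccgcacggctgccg
HSPA5, chr9:125241294-125241593, minus strand: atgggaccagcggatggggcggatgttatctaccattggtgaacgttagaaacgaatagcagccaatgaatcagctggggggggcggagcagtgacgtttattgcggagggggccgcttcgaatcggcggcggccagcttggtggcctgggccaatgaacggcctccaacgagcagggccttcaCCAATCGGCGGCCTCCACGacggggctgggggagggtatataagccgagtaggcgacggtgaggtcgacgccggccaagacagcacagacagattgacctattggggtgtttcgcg
CALR, chr19:12938359-12938658, plus strand: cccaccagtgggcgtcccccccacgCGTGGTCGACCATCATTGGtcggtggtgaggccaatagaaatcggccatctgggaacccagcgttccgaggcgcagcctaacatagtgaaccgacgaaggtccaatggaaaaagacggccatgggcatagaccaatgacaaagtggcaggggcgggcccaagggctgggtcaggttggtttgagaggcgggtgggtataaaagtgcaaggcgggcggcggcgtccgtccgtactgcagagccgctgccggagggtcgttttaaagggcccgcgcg
SMAD6, chr15:66701986-66702285, plus strand: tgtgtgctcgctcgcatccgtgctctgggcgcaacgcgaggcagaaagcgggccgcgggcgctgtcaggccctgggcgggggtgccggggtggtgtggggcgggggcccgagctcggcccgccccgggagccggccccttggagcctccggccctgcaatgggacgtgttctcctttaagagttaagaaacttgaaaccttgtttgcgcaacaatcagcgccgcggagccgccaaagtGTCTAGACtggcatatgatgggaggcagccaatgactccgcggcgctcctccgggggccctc

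Motifs were searched as letters on both strands in 27305 promoters of 300 bases. The ER stress element, CCAAT and CCACG with 9 bases of any kind between them, was found in 6 of 18 promoters of the ER chaperone list (HSPA5, HSP90B1, CALR, CANX, CRELD2 and XBP1), against 0.0806% of all promoters. The carbohydrate response element, CACGNG repeated after 5 bases of any kind, was in TXNIP alone of 8 promoters of the glucose sensor list, against 0.0732% of all. The E-box CACGTG, which can overlap that element, was in 3 of the 8 (ARRDC4, G6PC3 and MLX), against 7.43% of all. The SMAD palindrome GTCTAGAC was in SMAD6 alone of 11 promoters of the BMP list, against 0.201% of all. The GC-rich SMAD element GGCGCC was in 4 of the 11 (BAMBI, GREM1, BMP4 and BMPR2), against 19% of all. None of these 4 genes passed the test between the extracts. The antioxidant response element TGACNNNGC was in 5 of 19 promoters of the NRF2 list (13.6% of all), the AhR element TNGCGTG in 2 of 5 (5.51% of all) and the amino acid response element TGATGNAAN in 4 of 20 of the ATF4 list (3.67% of all). A match is a run of letters and not a measured binding site.

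Of 17190 genes tested with edgeR's quasi-likelihood test, 2110 (12.3%) differed between Citri and Cimicifugae at the high dose at a Benjamini-Hochberg adjusted p under 0.05. Of these, 1119 (6.51%) were higher with Citri and 991 (5.76%) were lower. Most differences were small, with a median absolute log2 difference of 0.21 among the called genes. At least 2-fold differences were found for 34 genes higher and 14 lower with Citri. The 3 libraries of one extract did not overlap with the 3 of the other for 1928 of the 2110 called genes, against 24.1% of all genes tested. Call and overlap come from the same 6 libraries, so the share among called genes is largely fixed by the call. Without the Cimicifugae library that stood apart, 1125 genes of 17436 (6.45%) were called, 635 (3.64%) higher and 490 (2.81%) lower. Of the 2110 genes, 994 were called with the same sign in both, 1116 lost their call, and 0 were called with the opposite sign. With only the 6 high-dose libraries in the fit 267 genes were called, and with only the 18 libraries of code set 5 the count was 1091. Counts of list members below stand against 6.51% of all genes called higher and 5.76% called lower. Without the library that stood apart those shares are 3.64% and 2.81%.

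**Figure D1:**
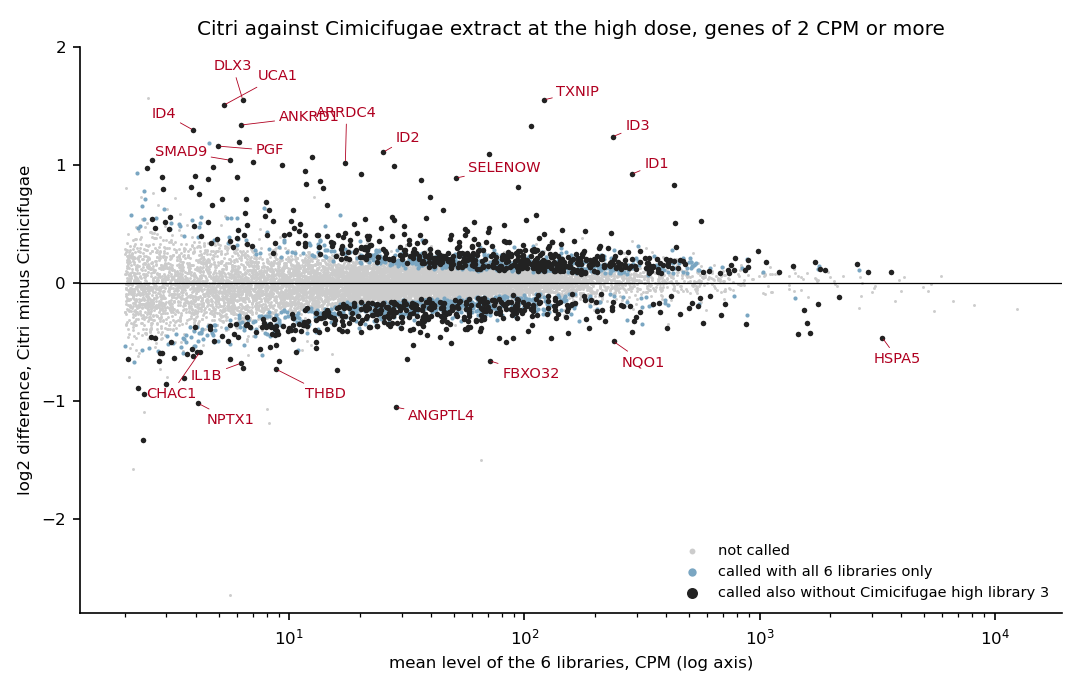
Log2 difference, Citri minus Cimicifugae, against the mean level of the 6 libraries in CPM on a log axis, for the 12825 genes with a mean of at least 2 CPM. Black points were called also without the Cimicifugae library that stood apart (973 genes); TXNIP, SAMD11 and ID3 lie highest among the called genes above 100 CPM, and ANGPTL4 lies lowest of the genes labelled in the plot.

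Of all gene lists, that of the BMP response had the largest median difference between the extracts, and it was higher with Citri. Of the 14 BMP list genes tested, 9 were called higher with Citri and 0 lower, against 6.51% and 5.76% of all genes. Their median log2 difference was 0.96, against 0.00 for all genes tested. Without the library that stood apart the counts were again 9 and 0, and the median was 0.94. Against the vehicle the median of the 14 genes was 0.12 with Citri and -0.64 with Cimicifugae, in comparisons that share the vehicle libraries.

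ID3, on chromosome 1 (GRCh38 1:23557918-23559794, minus strand), encodes a helix-loop-helix protein that blocks DNA binding by its partners. It stood at 337, 324 and 340 CPM with Citri, against 144, 140 and 140 CPM with Cimicifugae and 237, 238 and 228 CPM in the vehicle. The groups did not overlap, Citri lay above the vehicle and Cimicifugae below it. The log2 difference was 1.24 ± 0.06 (SE; adjusted p = 7.7e-22), a 2.36-fold higher level with Citri. ID1, on chromosome 20 and of the same family, stood at 396, 371 and 356 CPM with Citri, against 192, 210 and 191 CPM with Cimicifugae and 258, 276 and 280 CPM in the vehicle, in the same order of groups. Its log2 difference was 0.92 ± 0.08 (adjusted p = 1.8e-13). ID2, on chromosome 2, had 33.8, 34.7 and 34.4 CPM with Citri, against 14.9, 16.1 and 16.7 CPM with Cimicifugae and 28.9, 28.5 and 26.1 CPM in the vehicle. The Cimicifugae libraries were again lowest (log2 difference 1.11 ± 0.07, adjusted p = 1.5e-17). ID4, on chromosome 6, averaged 5.55 ± 0.72 CPM with Citri and 2.25 ± 0.11 CPM with Cimicifugae (SD, n = 3 each), and its log2 difference was 1.3 ± 0.13. ID1, ATOH8 and SMAD6 fell outside the rule for naming genes and were chosen after their values were seen.

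SMAD6, an inhibitory SMAD that BMP signals induce and whose promoter is shown above, had 18.2, 17.0 and 16.9 CPM with Citri, against 9.52, 9.73 and 9.44 CPM with Cimicifugae and 13.5, 15.9 and 16.5 CPM in the vehicle. Cimicifugae was lower than each of the other groups in every library, and the log2 difference was 0.86 ± 0.07 (adjusted p = 3.6e-14). SMAD9, a receptor-activated SMAD of the BMP branch, averaged 7.49 ± 0.99 CPM with Citri and 3.66 ± 0.18 CPM with Cimicifugae (SD, n = 3 each), against 5.45 ± 0.84 CPM in the vehicle. ATOH8, a helix-loop-helix factor, averaged 37.0 ± 2.5 CPM with Citri and 18.5 ± 0.5 CPM with Cimicifugae, against 30.4 ± 2.4 CPM in the vehicle (SD, n = 3 each). NOG, a secreted BMP antagonist, was low, with 0.910, 1.14 and 1.04 CPM with Citri, against 0.229, 0.438 and 0.786 CPM with Cimicifugae (log2 difference 1.08 ± 0.31, adjusted p = 0.017). It was 1.63 ± 0.37 without the library that stood apart (adjusted p = 0.0023), and with 1 library left out it ranged from 0.72 to 1.63, with an adjusted p of 0.14 at the largest. The ligands BMP2 and BMP4, the receptor BMPR2, the pseudoreceptor BAMBI and the antagonist GREM1 did not pass the test, with log2 differences from -0.17 to 0.13.

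**Figure D2:**
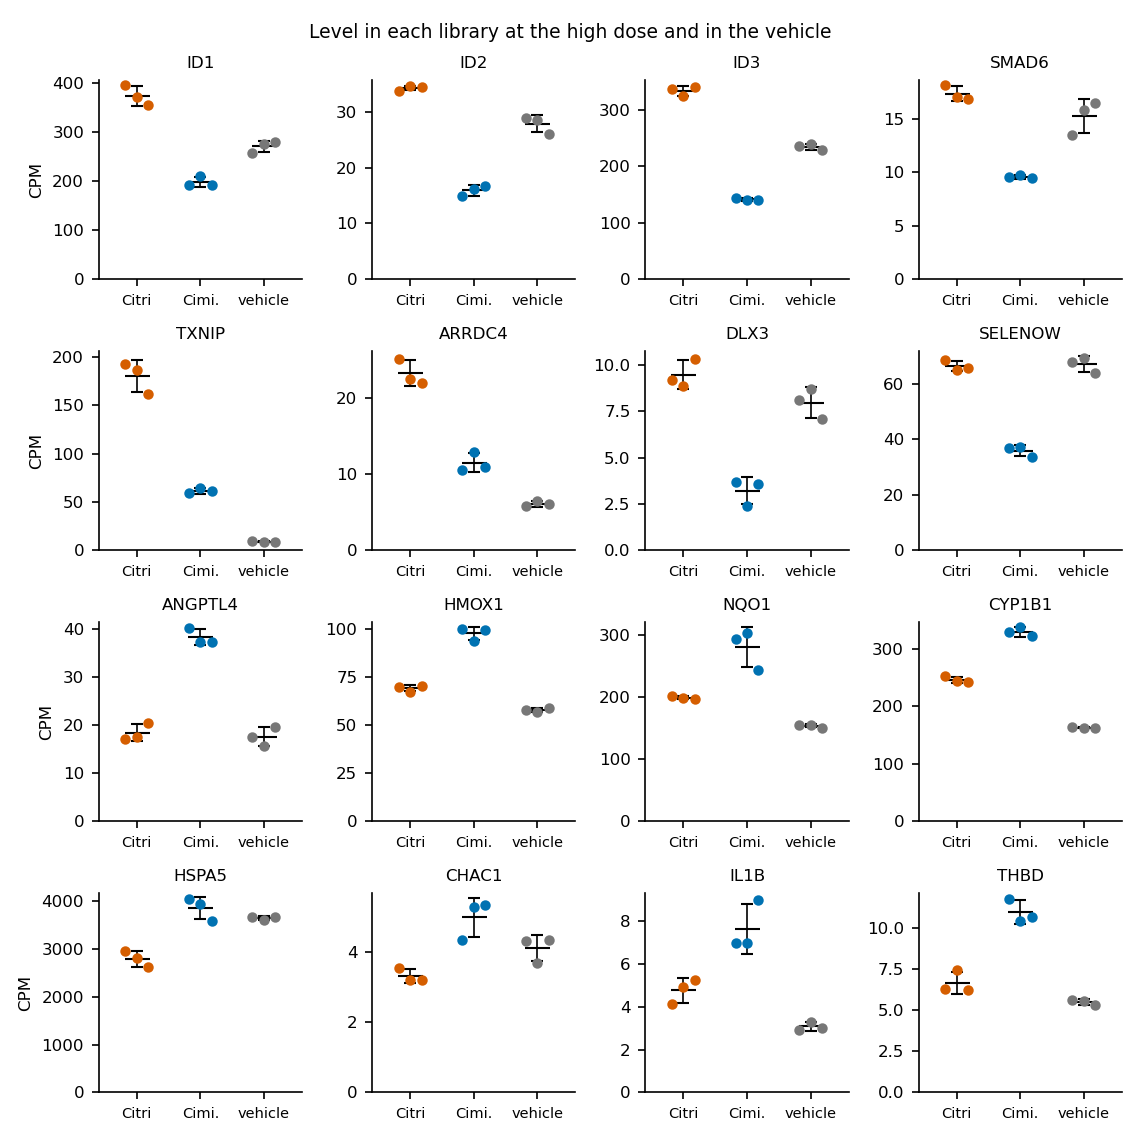
CPM in each of the 3 libraries with Citri (orange), Cimicifugae (blue) and vehicle (grey) for 16 genes, with the mean and SD as black bars and axes from 0. ID1, ID2, ID3, SMAD6, DLX3 and SELENOW are lowest with Cimicifugae, TXNIP and ARRDC4 are highest with Citri and lowest in the vehicle, and the other 8 genes are highest with Cimicifugae, by mean.

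TXNIP and ARRDC4 were above the vehicle with both extracts and higher with Citri. TXNIP, on chromosome 1 (1:145992435-145996600, minus strand), had 193, 187 and 162 CPM with Citri, against 58.8, 64.7 and 61.2 CPM with Cimicifugae and 9.31, 8.44 and 8.38 CPM in the vehicle. The 3 groups were far apart, and the log2 difference between the extracts was 1.55 ± 0.06 (adjusted p = 2.0e-26). Against the vehicle it was 4.37 ± 0.07 with Citri and 2.82 ± 0.08 with Cimicifugae. ARRDC4, on chromosome 15 (15:97960698-97973838, plus strand), had 25.1, 22.4 and 22 CPM with Citri, against 10.5, 12.9 and 10.9 CPM with Cimicifugae and 5.74, 6.5 and 6.03 CPM in the vehicle. The order of the groups was the same as for TXNIP, and the log2 difference between the extracts was 1.02 ± 0.08 (adjusted p = 1.2e-14). Other genes of the glucose sensor list differed less. Of its 10 genes tested, 3 were called higher and 2 lower (6.51% and 5.76% of all genes), with a median of 0.01. Without the Cimicifugae library that stood apart 4 were called higher, 0 lower, with a median of 0.12. PFKFB3, an enzyme that makes an activator of glycolysis, averaged 102 ± 1.3 CPM with Citri and 84.7 ± 4.8 CPM with Cimicifugae (SD, n = 3 each; log2 difference 0.27 ± 0.04). MLXIP, which encodes MondoA, was lower with Citri (log2 difference -0.19 ± 0.05, adjusted p = 0.0049; 0.11 without that library). MLX and ARRDC3 did not pass the test.

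The other large differences among genes higher with Citri concerned genes of several kinds. DLX3, a homeobox transcription factor, had 9.18, 8.85 and 10.3 CPM with Citri, against 3.67, 2.37 and 3.58 CPM with Cimicifugae and 8.10, 8.70 and 7.05 CPM in the vehicle. The Cimicifugae libraries stood apart as the low ones (log2 difference 1.55 ± 0.13, adjusted p = 2.9e-13). UCA1, a long noncoding RNA, averaged 7.79 ± 0.94 CPM with Citri and 2.76 ± 0.34 CPM with Cimicifugae (SD, n = 3 each), against 7.13 ± 0.61 CPM in the vehicle. SAMD11, a SAM-domain protein gene, averaged 153 ± 6.1 CPM with Citri and 60.9 ± 3.4 CPM with Cimicifugae (SD, n = 3 each), against 124 ± 5.1 CPM in the vehicle. The noncoding gene LINC02593 lies next to SAMD11 on chromosome 1 and differed in the same direction (log2 difference 1.07 ± 0.08 beside 1.33 ± 0.05). FAM83G, which encodes a SMAD1-binding protein also known as PAWS1, averaged 95.9 ± 3.7 CPM with Citri and 44.9 ± 1.2 CPM with Cimicifugae (SD, n = 3 each), against 71.8 ± 0.3 CPM in the vehicle. PGF, a growth factor of the VEGF family, had a log2 difference of 1.16 ± 0.13. KRT7-AS, listed as an antisense gene, was also higher with Citri (log2 difference 1.02 ± 0.11), but no source used here gives the strand setting of the counting, so its reads and those of the gene on the other strand may not have been told apart.

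Most of the 27 NRF2 targets tested were lower with Citri. Of them, 21 were called lower (5.76% of all genes were) and 0 higher, with a median log2 difference of -0.29, and without the library that stood apart 20 were called lower, 0 higher, with a median of -0.27. Against the vehicle their median was 0.15 with Citri and 0.37 with Cimicifugae. NQO1, a quinone reductase on chromosome 16 (16:69706996-69726951, minus strand), had 201, 198 and 197 CPM with Citri, against 293, 303 and 244 CPM with Cimicifugae and 155, 154 and 150 CPM in the vehicle. Both extracts lay above the vehicle in every library, Cimicifugae further, and the log2 difference between them was -0.49 ± 0.05 (adjusted p = 2.2e-10). HMOX1, the heme-degrading oxygenase, had 69.9, 67.2 and 70.1 CPM with Citri, against 99.8, 93.7 and 99.4 CPM with Cimicifugae and 57.8, 56.8 and 58.8 CPM in the vehicle, in the same order (log2 difference -0.50 ± 0.04, adjusted p = 3.2e-12). The heme transporter SLC48A1 had a log2 difference of -0.52 ± 0.06, and the iron-storing ferritin chains FTL and FTH1 had -0.42 ± 0.05 and -0.43 ± 0.06. SLC7A11, the cystine importer, and GCLM, a subunit of the enzyme that starts glutathione synthesis, had log2 differences of -0.38 ± 0.05 and -0.36 ± 0.04. GCLM stood at 97.0, 93.0 and 93.7 CPM with Citri, against 128, 125 and 110 CPM with Cimicifugae and 94.0, 95.7 and 97.9 CPM in the vehicle, so that the Citri libraries lay at the level of the vehicle. TXNRD1, a thioredoxin reductase, overlapped between the extracts, with 354, 353 and 343 CPM with Citri, against 419, 423 and 341 CPM with Cimicifugae (log2 difference -0.17 ± 0.05, adjusted p = 0.011). It was -0.26 ± 0.04 without the library that stood apart (adjusted p = 4.1e-06), and with 1 library left out it ranged from -0.26 to -0.12, with an adjusted p of 0.10 at the largest. ABCC2, BLVRB, PRDX1, GSR, TALDO1 and AKR1C3 did not pass the test.

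AhR targets were lower with Citri where the test called them. Of 7 tested, 5 were called lower with Citri and 0 higher (5.76% and 6.51% of all genes), with a median log2 difference of -0.38. Without the library that stood apart 4 were called lower, 0 higher. Their median against the vehicle was 0.39 with Citri and 0.77 with Cimicifugae. CYP1B1, a cytochrome P450 on chromosome 2 (2:38066973-38109902, minus strand), had 253, 243 and 243 CPM with Citri, against 328, 337 and 321 CPM with Cimicifugae and 164, 163 and 162 CPM in the vehicle. The 3 groups did not overlap, and the log2 difference between the extracts was -0.42 ± 0.03 (adjusted p = 1.0e-13). TIPARP, a mono-ADP-ribosyltransferase that limits AhR, had 54.5, 56.3 and 59.1 CPM with Citri, against 74.9, 73.5 and 73.0 CPM with Cimicifugae and 45.0, 41.4 and 43.0 CPM in the vehicle (log2 difference -0.38 ± 0.04, adjusted p = 2.1e-09). AHRR, the AhR repressor, had a log2 difference of -0.26 ± 0.05. ALDH3A1, an aldehyde dehydrogenase, was low in all groups, with 0.910, 0.989 and 0.707 CPM with Citri, against 2.87, 2.50 and 2.20 CPM with Cimicifugae and 0.302, 0.560 and 0.409 CPM in the vehicle (log2 difference -1.55 ± 0.27, adjusted p = 4.5e-05). CYP1A1 had 1.53, 1.63 and 1.27 CPM with Citri, against 1.76, 2.37 and 2.95 CPM with Cimicifugae and 0.554, 0.775 and 0.767 CPM in the vehicle. Its log2 difference of -0.68 ± 0.21 passed the test with all libraries (adjusted p = 0.026) but not without the library that stood apart, which held the highest value (adjusted p = 0.26).

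ER chaperones were lower with Citri where the test called them. Of 19 tested, 14 were called lower and 0 higher (5.76% and 6.51% of all genes), with a median log2 difference of -0.18. Without the library that stood apart 13 were called lower, 0 higher, and the median was -0.21. Here the extracts lay on either side of the vehicle, with medians of -0.13 for Citri and 0.08 for Cimicifugae. HSPA5, the main ER chaperone BiP, on chromosome 9 (9:125234853-125241330, minus strand), had 2955, 2805 and 2630 CPM with Citri, against 4040, 3942 and 3593 CPM with Cimicifugae and 3670, 3607 and 3676 CPM in the vehicle. Every Citri library was below every other library, and the log2 difference between the extracts was -0.46 ± 0.04 (adjusted p = 3.6e-14). CALR, the calcium-binding chaperone calreticulin, had 1447, 1417 and 1370 CPM with Citri, against 1789, 1794 and 1776 CPM with Cimicifugae and 1649, 1638 and 1578 CPM in the vehicle, in the same order (log2 difference -0.34 ± 0.03, adjusted p = 2.7e-12). HERPUD1, a part of ER-associated degradation, and MANF, a secreted ER stress protein, had log2 differences of -0.47 ± 0.05 and -0.43 ± 0.04.

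ATF4 targets serve amino acid supply and the stress response. Of 25 tested, 10 were called lower with Citri and 2 higher (5.76% and 6.51% of all genes). Their median log2 difference was -0.11, and without the library that stood apart 10 were lower, 1 higher. CHAC1, which degrades glutathione, had 3.56, 3.21 and 3.20 CPM with Citri, against 4.36, 5.30 and 5.35 CPM with Cimicifugae and 4.33, 3.70 and 4.34 CPM in the vehicle (log2 difference -0.58 ± 0.13, adjusted p = 0.0011). TRIB3, a pseudokinase, and NUPR1, a stress-induced chromatin protein, had log2 differences of -0.36 ± 0.06 and -0.43 ± 0.09.

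Lipid genes that PPAR factors drive were lower with Citri where the test called them. Of 9 tested, 3 were called lower with Citri and 0 higher (5.76% and 6.51% of all genes). The median log2 difference was -0.11, and the counts were the same without the library that stood apart. ANGPTL4, a secreted inhibitor of lipoprotein lipase on chromosome 19 (19:8363289-8374373, plus strand), had 17.1, 17.6 and 20.4 CPM with Citri, against 40.1, 37.3 and 37.3 CPM with Cimicifugae and 17.6, 15.6 and 19.7 CPM in the vehicle. The Citri libraries were at the level of the vehicle, and the log2 difference between the extracts was -1.05 ± 0.06 (adjusted p = 1.1e-18). PLIN2, which coats lipid droplets, had 65.4, 62.7 and 68.4 CPM with Citri, against 89.3, 93.0 and 89.6 CPM with Cimicifugae and 71.9, 66.5 and 70.0 CPM in the vehicle (log2 difference -0.47 ± 0.04, adjusted p = 1.5e-13). CPT1A, which brings fatty acids into mitochondria, had a log2 difference of -0.37 ± 0.05. ACSL5, which activates long-chain fatty acids and is in none of these lists, averaged 10.6 ± 0.3 CPM with Citri and 15.5 ± 0.7 CPM with Cimicifugae (SD, n = 3 each), against 10.8 ± 0.4 CPM in the vehicle.

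Further genes with large differences were lower with Citri. THBD, the thrombin receptor thrombomodulin, had 6.29, 7.42 and 6.21 CPM with Citri, against 11.8, 10.4 and 10.7 CPM with Cimicifugae and 5.64, 5.56 and 5.32 CPM in the vehicle (log2 difference -0.73 ± 0.10, adjusted p = 1.4e-07). FBXO32, a ubiquitin ligase subunit known from muscle atrophy, had 55.3, 55.2 and 55 CPM with Citri, against 89.5, 89.1 and 82.8 CPM with Cimicifugae and 93.4, 92.6 and 93.7 CPM in the vehicle. Here the Citri libraries were the low ones (log2 difference -0.66 ± 0.05, adjusted p = 3.6e-14). HAS3, a hyaluronan synthase, averaged 24.7 ± 2.1 CPM with Citri and 38.7 ± 2.4 CPM with Cimicifugae (SD, n = 3 each), against 34.1 ± 1.0 CPM in the vehicle. NPTX1, a neuronal pentraxin, averaged 2.71 ± 0.20 CPM with Citri and 5.48 ± 0.63 CPM with Cimicifugae (SD, n = 3 each), against 3.82 ± 0.32 CPM in the vehicle. The transcription factor OSR1, the clock factor NPAS2, the lipid transporter ABCA3, the sterol enzyme HSD3B7, the lipid kinase PIK3C2B and the genes CLMN and PRRT3 had log2 differences from -0.72 to -0.53.

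Of 17 cytokine genes tested, 2 were called higher with Citri and 2 lower (11.8% each), against 6.51% and 5.76% of all genes. Their median log2 difference was -0.07, and without the library that stood apart the counts were 2 and 1. IL1B had 4.14, 4.95 and 5.25 CPM with Citri, against 6.99, 6.97 and 9 CPM with Cimicifugae and 2.92, 3.32 and 3.02 CPM in the vehicle, so that both extracts lay above the vehicle (log2 difference between them -0.68 ± 0.11, adjusted p = 1.3e-05). IL11, a cytokine of the IL-6 family, had 121, 120 and 119 CPM with Citri, against 89.5, 93.5 and 66.8 CPM with Cimicifugae and 77.1, 77.7 and 84.1 CPM in the vehicle (log2 difference 0.53 ± 0.08, adjusted p = 3.5e-06; 0.39 without the library that stood apart). CXCL8, a neutrophil chemokine, had a log2 difference of 0.33 ± 0.11 (adjusted p = 0.043, 0.18 at the largest when 1 library was left out). VEGFA, the endothelial growth factor, had 343, 355 and 356 CPM with Citri, against 455, 456 and 459 CPM with Cimicifugae and 282, 296 and 306 CPM in the vehicle, with no overlap of the 3 groups (log2 difference -0.38 ± 0.03, adjusted p = 2.0e-13). Within the list of hypoxia and glycolysis, to which VEGFA belongs, it was the only gene called lower, while 8 of 24 were called higher (4 without that library, VEGFA then again the only one lower). Among these was PGK1, a glycolytic kinase, with a log2 difference of 0.27 ± 0.04. In the EGF family list 3 of 11 were called higher and 2 lower, with TGFA, a ligand, at 0.42 ± 0.06 and its receptor EGFR at -0.25 ± 0.04.

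Targets of TGF-beta and YAP and the collagens were higher with Citri where the test called them, and their medians lay below the vehicle with both extracts. Of 16 TGF-beta targets 5 were called higher and 0 lower, against 6.51% and 5.76% of all genes. Their median log2 difference was 0.07, and without the library that stood apart the counts were 7 and 0, with a median of 0.17. Their median against the vehicle was -0.24 with Citri and -0.37 with Cimicifugae. Of 14 YAP targets 6 were called higher and 0 lower, with a median of 0.13 (6 and 0 without that library), and their median against the vehicle was -0.13 with Citri and -0.25 with Cimicifugae. CCN2, a matricellular protein in both lists, had 69.8, 67.2 and 79.2 CPM with Citri, against 48.4, 55.9 and 47.1 CPM with Cimicifugae and 97.9, 94.0 and 101 CPM in the vehicle. The 3 groups did not overlap (log2 difference between the extracts 0.52 ± 0.06, adjusted p = 1.0e-08). ANKRD1, a YAP-driven ankyrin protein gene, had 8.65, 7.96 and 10.2 CPM with Citri, against 2.98, 3.86 and 3.85 CPM with Cimicifugae and 13.4, 9.30 and 12.9 CPM in the vehicle (log2 difference 1.34 ± 0.14, adjusted p = 6.9e-10). CCN1, a relative of CCN2, the inhibitory SMAD7, the SMAD corepressor SKIL and the actin-binding TPM1 had log2 differences of 0.44 ± 0.05, 0.50 ± 0.07, 0.35 ± 0.05 and 0.30 ± 0.03. Of 16 collagens 7 were called higher and 0 lower (4 and 0 without that library), with a median of 0.06, and COL11A1, a minor fibrillar collagen, had the largest difference of them that passed the test (0.53 ± 0.05). Of 22 other matrix and crosslinking genes 4 were called higher and 2 lower, with the crosslinking enzyme LOX at 0.31 ± 0.03 and elastin, ELN, at 0.48 ± 0.16 (adjusted p = 0.041, and 0.053 without that library), and of 17 matrix proteases and inhibitors 2 were higher and 4 lower, with TIMP3, a protease inhibitor, at 0.35 ± 0.05 and PLAT, a plasminogen activator, at -0.32 ± 0.05. Without that library the counts of these lists were 3 and 1, and 1 and 2.

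Of 23 genes of mitosis, 11 were called higher with Citri and 0 lower, against 6.51% and 5.76% of all genes. Their median log2 difference was 0.12, and without the library that stood apart the counts were 12 and 0, with a median of 0.15. Their median against the vehicle was 0.12 with Citri and 0.00 with Cimicifugae. DLGAP5, a spindle protein, averaged 101 ± 1.9 CPM with Citri and 84.1 ± 6.5 CPM with Cimicifugae (SD, n = 3 each), against 92.6 ± 4.2 CPM in the vehicle. Of 23 DNA replication genes, 2 (8.7%) were called higher, near the share over all genes, and 0 lower (0 and 0 without that library). No cell counts were used, and in bulk RNA a change in the share of dividing cells and a change of RNA per cell cannot be told apart.

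Of 14 selenoproteins 6 were called higher with Citri and 1 lower, against 6.51% and 5.76% of all genes. Their median log2 difference was 0.20, and without the library that stood apart the counts were 4 and 1, with a median of 0.13. SELENOW, a small redox protein, had 68.4, 65.0 and 65.8 CPM with Citri, against 36.9, 37.2 and 33.5 CPM with Cimicifugae and 68.0, 69.3 and 63.8 CPM in the vehicle. Citri lay at the level of the vehicle and the Cimicifugae libraries below it (log2 difference between the extracts 0.89 ± 0.05, adjusted p = 2.9e-19). GPX1, the cytosolic glutathione peroxidase, showed the same order, with means of 183 ± 2.3 CPM with Citri and 143 ± 6.6 CPM with Cimicifugae, against 182 ± 0.7 CPM in the vehicle (SD, n = 3 each), and SELENOH, a nuclear selenoprotein, had a log2 difference of 0.56 ± 0.09. The 1 selenoprotein called lower was TXNRD1, described with the NRF2 targets.

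The remaining lists are given by their counts, which stand against 6.51% of all genes called higher and 5.76% called lower with all libraries, and 3.64% and 2.81% without the library that stood apart. Of 18 heat shock chaperones 8 were called higher and 1, the cochaperone BAG3 (log2 difference -0.31 ± 0.06), lower. Of 9 glucocorticoid targets 3 were higher and 2 lower, with the phosphatase DUSP1 at 54.6 ± 2.2 CPM with Citri and 35.6 ± 4.9 CPM with Cimicifugae, against 32.9 ± 1.6 CPM in the vehicle (SD, n = 3 each). Of 20 lysosome and autophagy genes 2 were called higher and 4 lower, among them NPC1, the lysosomal cholesterol exporter, at 0.42 ± 0.03 and SQSTM1, an autophagy receptor that NRF2 also drives, at -0.34 ± 0.04. Called higher and lower were, in that order, 1 and 3 of 15 FOXO targets, 3 and 4 of 19 immediate early genes, 1 and 1 of 12 NF-kB feedback genes, 0 and 3 of 21 interferon response genes, 1 and 0 of 18 p53 targets, 0 and 1 of 5 metallothioneins, and 1 and 2 of 16 clock genes. For lipid and sugar synthesis they were 1 and 4 of 24 cholesterol synthesis genes, 4 and 4 of 12 fatty acid synthesis genes, 0 and 1 of 9 LXR targets, and 5 and 4 of 19 genes of the pentose phosphate pathway and nucleotide synthesis. They were 2 and 1 of 10 tubulins, 2 and 0 of 5 nuclear long RNAs and 2 and 0 of 5 replication histones. The medians of these lists lay between -0.12 and 0.30. Without the library that stood apart the counts were 0 and 2 for FOXO targets, 2 and 2 for immediate early genes, 0 and 1 for NF-kB feedback and for interferon response genes, 0 and 0 for p53 and for LXR targets, 2 and 2 for the pentose phosphate list, 2 and 4 for fatty acid synthesis, 1 and 1 for lysosome and autophagy genes, 2 and 1 for glucocorticoid targets, and 1 and 0 for nuclear long RNAs and for replication histones. For the other lists of these they changed by at most 1 in either direction.

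**Figure D3:**
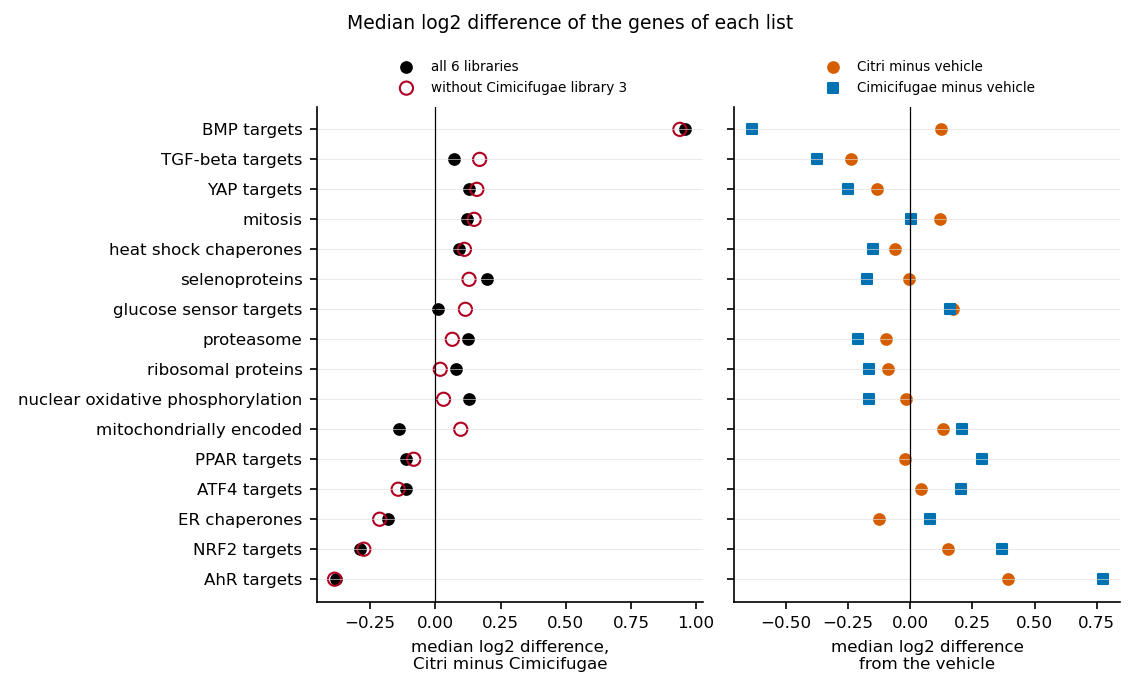
Median log2 difference of the tested genes of 16 lists: left, Citri minus Cimicifugae with all 6 libraries (filled) and without the Cimicifugae library that stood apart (open); right, each extract minus the vehicle. The BMP list has the highest median (0.96) and the AhR list the lowest (-0.38), and the mitochondrially encoded list is at -0.14 with that library and 0.10 without it.

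Housekeeping lists were also read with and without the Cimicifugae library that stood apart; over all genes 6.51% were called higher with it and 3.64% without it. Of 21 proteasome subunits 7 were called higher with Citri with all libraries, and 1 without that library, with medians of 0.12 and 0.06. Of 26 ribosomal proteins the counts were 2 and 0, with medians of 0.08 and 0.02, and of 25 nuclear genes of oxidative phosphorylation they were 3 and 1, with medians of 0.13 and 0.03. The ribosomal count is near the share over all genes. None of these 3 lists had a gene called lower. The 13 mitochondrially encoded genes had 0 calls by edgeR and by DESeq2 (1 at an unadjusted p under 0.05 with either), and their median was -0.14 with the library and 0.10 without it. They summed to 42032 to 48822 CPM with Citri, 41992 to 63694 CPM with Cimicifugae and 40792 to 43147 CPM in the vehicle. The part of that library's RNA quality in the result was not tested.

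**Figure D4:**
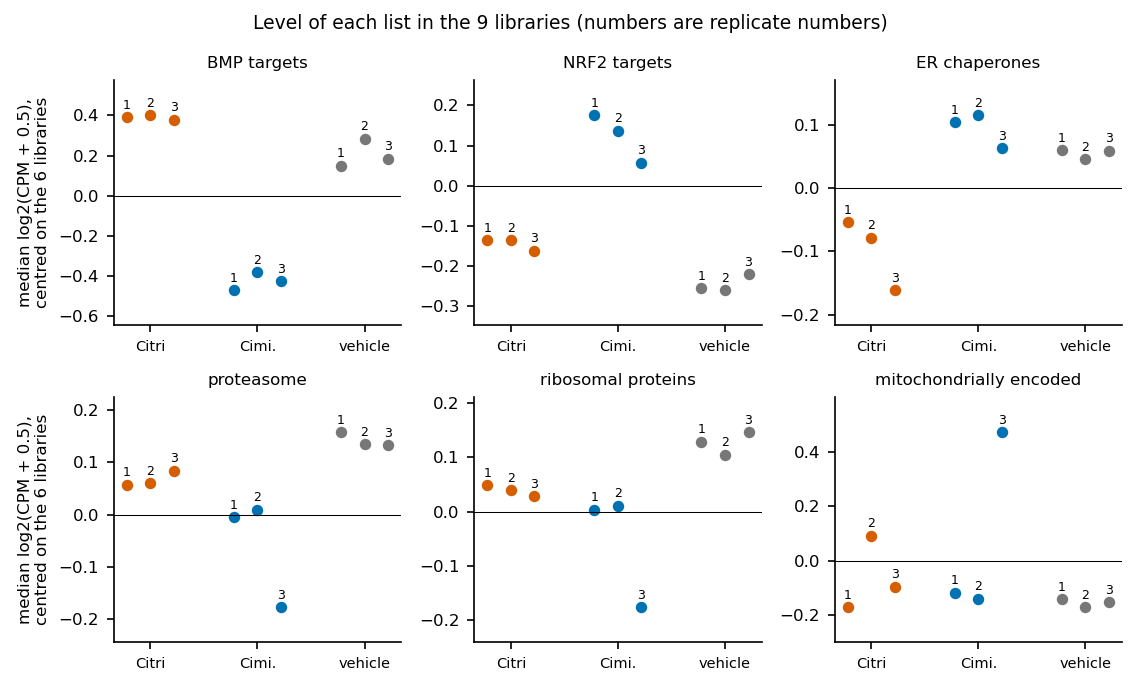
Level of 6 lists in each of the 9 libraries, as the median over the list's genes of log2(CPM + 0.5) centred on the 6 extract libraries, with replicate numbers above the points. The BMP, NRF2 and ER chaperone lists separate Citri from Cimicifugae in all 3 libraries of each, while Cimicifugae library 3 lies apart from its group in the proteasome, ribosomal and mitochondrially encoded lists.

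Markers of other cell types were read beside these results. Over all genes 6.51% were called higher and 5.76% lower, and 1 call in so short a list is not read as a result. The 10 astrocyte markers summed to 394 to 414 CPM with Citri, 377 to 396 CPM with Cimicifugae and 411 to 426 CPM in the vehicle, and 1 of 5 tested was called higher with Citri (0 without the library that stood apart). Of 10 mesenchymal markers 3 were called higher and 0 lower (2 and 0 without it). Of 6 tested neuron markers 1 was higher, with DCX at 0 and sums of 165 to 175 CPM with Citri, 155 to 158 CPM with Cimicifugae and 186 to 195 CPM in the vehicle. Of 4 oligodendrocyte markers 0 were called by edgeR or DESeq2, with 0 at an unadjusted p under 0.05 by either and MOG at 0. Of 3 microglia and macrophage markers 1 was called lower, the lysosomal protein CD68, with 149, 155 and 151 CPM with Citri, against 174, 168 and 227 CPM with Cimicifugae (adjusted p = 0.0011, and 0.11 without the library that stood apart). AIF1 and P2RY12, also of the microglia and macrophage list, were at 0. Of 5 epithelial markers 2 were called higher, with the keratin KRT18 at 146, 143 and 150 CPM with Citri, against 116, 111 and 119 CPM with Cimicifugae and 229, 220 and 229 CPM in the vehicle. EPCAM, CDH1, KRT5 and KRT19 were under 1 CPM in all 6 libraries.

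At the medium dose of 100 µg/mL the same extracts differed in 115 genes (0.669%), 60 higher (0.349%) and 55 lower (0.32%) with Citri. These libraries share none with the high dose. Of the 115 genes 85 were also called in the same direction at the high dose, which is 73.9% of the medium-dose calls and 4.03% of the high-dose calls, and 0 were called in the opposite direction. Over all genes 6.51% were called higher and 5.76% lower at the high dose. Of the 994 genes called at the high dose with and without the library that stood apart, 861 (86.6%) had the same sign at the medium dose. The share of all genes with the same sign as at the high dose is not given here, for this dose or the low one. The BMP list had 4 of its 14 genes called at the medium dose, 3 higher with Citri and the remaining gene lower. ID3 and ID1 were called at the medium dose, with log2 differences of 0.41 ± 0.06 and 0.40 ± 0.08, and SMAD6 had 0.30 ± 0.06. ID2, ID4, SMAD9 and NOG did not pass the test at this dose, with 0.19 ± 0.06, 0.30 ± 0.12, 0.15 ± 0.10 and -0.03 ± 0.28. SELENOW had 0.49 ± 0.05, CYP1B1 had -0.39 ± 0.03, TIPARP had -0.32 ± 0.04, HMOX1 had -0.28 ± 0.05 and VEGFA had -0.21 ± 0.03, all called. By list, 2 of 27 NRF2 targets, 3 of 7 AhR targets and 3 of 19 ER chaperones were called at this dose, 0 of them higher. NQO1 at -0.12 ± 0.05 and HSPA5 at -0.14 ± 0.04 did not pass the test. TXNIP and ARRDC4, in contrast, had log2 differences of -0.28 ± 0.08 and -0.01 ± 0.10 at the medium dose, and neither passed the test. ANGPTL4 had -0.21 ± 0.07 and did not pass the test.

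At the low dose of 20 µg/mL 28 genes (0.163%) were called, 21 higher (0.122%) and 7 lower (0.0407%). Of these 28, 8 were called in the same direction at the high dose and 4 in the opposite one. The low Citri library that stood apart takes part here, and without it 0 genes were called by edgeR, with 1006 at an unadjusted p under 0.05. With all libraries 2498 genes were at an unadjusted p under 0.05, and DESeq2 called 147. Of the 994 genes 547 (55%) had the same sign at the low dose. CYP1B1 was called (log2 difference -0.20 ± 0.03, adjusted p = 0.012), and ID1, ID2, ID3 and ID4 were not, with log2 differences from -0.20 to 0.14. When the low-dose difference was subtracted from the high-dose one, 1913 genes (11.1%) passed the test of this interaction, 953 (5.54%) with a positive and 960 (5.58%) with a negative value, and 428 passed without both libraries that stood apart. ID3 was at 1.19 ± 0.08 and TXNIP at 1.83 ± 0.11 on this log2 scale.

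**Figure D5:**
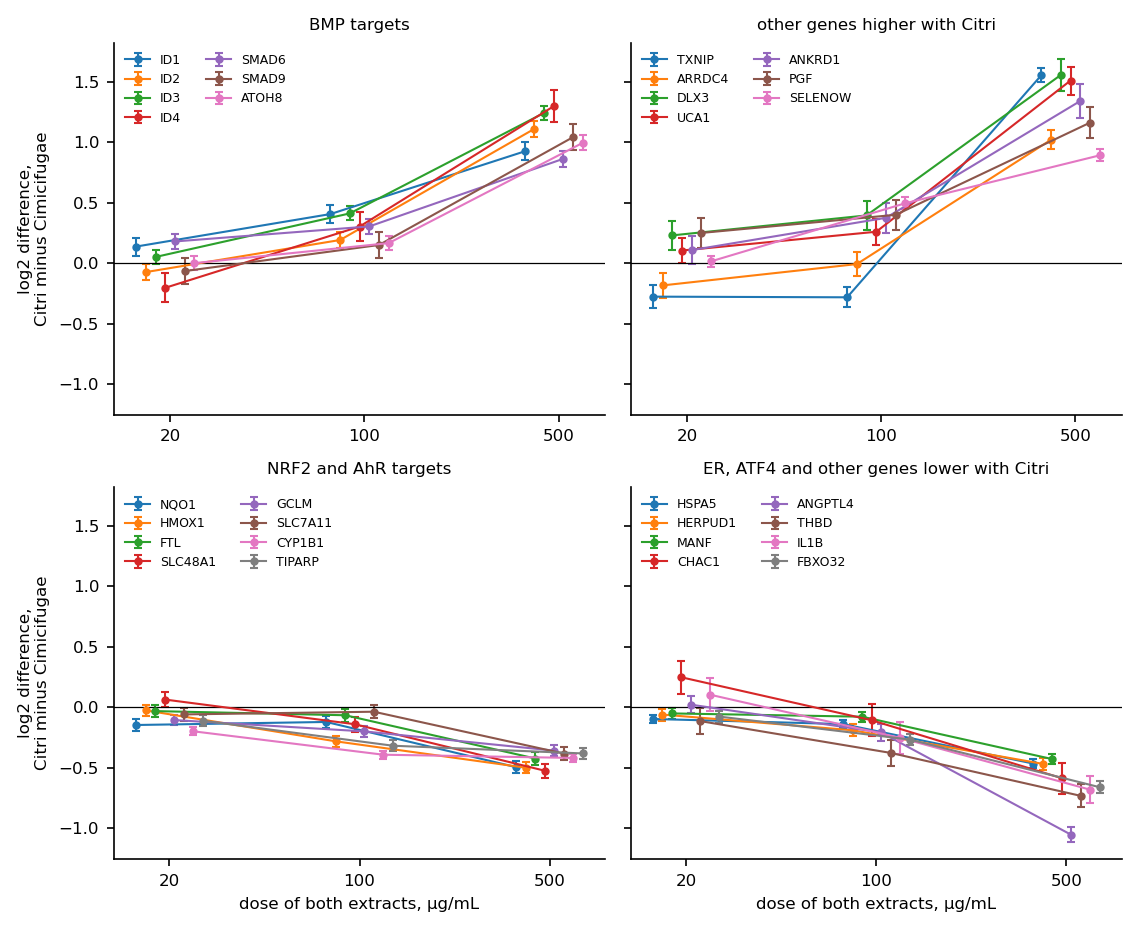
Log2 difference, Citri minus Cimicifugae, at 20, 100 and 500 µg/mL for 30 genes in 4 panels, with the SE as bars; points are shifted sideways for clarity. The BMP targets shown and SELENOW lie above 0 at 100 and 500 µg/mL, whereas TXNIP is at -0.28 at 20 and 100 µg/mL and at 1.55 at 500 µg/mL.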

How the data were processed

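Messenger RNA of SW1783 cells was sequenced as paired ends from directional libraries, per the labels' protocols. The deposited values are expected counts (estimated counts per gene) from RSEM 1.3.3 after STAR 2.7.3a on hg38, with Trim Galore 0.6.5 and FastQC 0.11.9 also named in the submitters' processing notes. No source used here gives the annotation release or the strand setting. RSEM divides shared reads by estimate, so close paralogs such as the AKR1C genes and the ferritin chains are uncertain. The expected counts of 60675 genes in 60 libraries, 9.22% of them not whole, were rounded. Genes were kept with filterByExpr by group, scaled with TMM and tested by quasi-likelihood in edgeR 4.0.16 (glmQLFTest; R 4.3.3) over the 57 libraries of 19 groups, with Benjamini-Hochberg adjustment over all 17190 genes. The SE is the log2 difference divided by the square root of F. Depth was 19.5 to 25.9 M counts in the 6 libraries. Replicate pairs were compared over genes of 20 counts or more, for both extracts at each dose and for the vehicle. They differed by 1.74 to 21.9 in chi-square per degree of freedom, so none was counted as a duplicate. Differences from the vehicle are given with their SE and no test.

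The genes named are the 15 highest and 15 lowest by log2 difference among those called with and without Cimicifugae high replicate 3, with at least 5 CPM in the higher group and no overlap of libraries, and up to 4 called members per list, of which 1 gene is not reported here; all members of the NRF2, AhR and glucose sensor lists could be named. The comparison, the gene lists and the rule were chosen with earlier results of these data known. Alternatives were DESeq2 1.42.0, RLE scaling, no filter, fewer libraries in the fit, a replicate block, mitochondrial genes left out, and each library left out in turn. Gene coordinates are GENCODE v29 on GRCh38, and promoters are RefSeq's on GRCh38.p14. Libraries of other extracts entered the fit only.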

Additional observations from a re-analysis of the deposited data

Results flagged for a closer look

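The difference between the extracts itself differed between doses for 73 of 81 genes counted here. The 81 are described above with a called difference at the high dose, and MLXIP, given at the end, was not counted among them. These genes were chosen for that high-dose difference, which is part of the interaction tested, so this share is largely fixed by the choice and nothing is read from it. For each gene the log2 difference, Citri minus Cimicifugae, at the low dose was subtracted from that at the high dose, and this interaction was tested with edgeR over all genes. Of 17190 genes 1913 (11.1%) passed at an adjusted p under 0.05, 953 (5.54%) with a positive and 960 (5.58%) with a negative value. A positive value means that Citri gained on Cimicifugae at the high dose relative to the low dose. Without both libraries that stood apart 428 genes passed, and 61 of the 73 genes were still among them. The 12 that no longer passed were IL11 at 0.18, NPTX1 at -0.60, CHAC1 at -0.70, IL1B at -0.62, OSR1 at -0.48, NUPR1 at -0.42, NPAS2 at -0.36, PRRT3 at -0.27, ACSL5 at -0.23, PLAT at -0.20, AHRR at -0.13 and CD68 at -0.08, with adjusted p from 0.061 to 0.71. Of those that still passed, the value moved by over 1.5 times for SELENOH (0.33), SKIL (0.24), PGK1 (0.19), EGFR (-0.18), BAG3 (-0.30) and NQO1 (-0.53). The values with all libraries follow. The largest positive values of this interaction, in log2 units, were TXNIP 1.83, ID4 1.5, UCA1 1.40, DLX3 1.33, ANKRD1 1.23, SAMD11 1.21, ARRDC4 1.20, ID3 1.19, ID2 1.18 and SMAD9 1.11. The next positive ones were KRT7-AS 1.09, FAM83G 1.02, ATOH8 0.99, PGF 0.91, LINC02593 0.89, SELENOW 0.88, ID1 0.79, SMAD6 0.68, SELENOH 0.68 and SMAD7 0.60. Smaller positive values were found for DUSP1 0.60, COL11A1 0.47, CCN2 0.41, IL11 0.40, TGFA 0.40, DLGAP5 0.39, NPC1 0.39, SKIL 0.37, GPX1 0.36 and LOX 0.35. Positive too were PGK1 0.32, TIMP3 0.32, TPM1 0.29, PFKFB3 0.28, CCN1 0.26 and KRT18 0.25. The largest negative values were ANGPTL4 -1.07, ABCA3 -0.90, CHAC1 -0.83, IL1B -0.79, OSR1 -0.76, NPTX1 -0.75, THBD -0.62, NPAS2 -0.61, SLC48A1 -0.59 and FBXO32 -0.58. The next negative ones were HAS3 -0.56, HSD3B7 -0.54, PRRT3 -0.50, HMOX1 -0.47, BAG3 -0.46, TRIB3 -0.46, HERPUD1 -0.41, FTH1 -0.40, FTL -0.39 and NUPR1 -0.38. Smaller negative values were found for MANF -0.38, HSPA5 -0.37, PLIN2 -0.36, CD68 -0.36, NQO1 -0.35, PLAT -0.34, ACSL5 -0.33, CPT1A -0.33, VEGFA -0.33 and SLC7A11 -0.32. Negative too were EGFR -0.32, TIPARP -0.27, CALR -0.27, SQSTM1 -0.26, GCLM -0.25, AHRR -0.24 and CYP1B1 -0.22. MLXIP, outside the 81 genes counted, also passed this edgeR test of the interaction at -0.34 (adjusted p = 0.00061). Its value was -0.23 without both libraries that stood apart (adjusted p = 0.042). The medium dose was not part of this test.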

How the results depend on the processing

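At the high dose the count of 2110 genes stayed within 1.5 times under DESeq2, RLE scaling, no filter, mitochondrial genes left out and the replicate block. It was 1091 with only code set 5, 267 with only the 6 compared libraries, 1345 without both libraries that stood apart, and 1125 to 2718 when 1 library was left out, the lowest without Cimicifugae high replicate 3. The 30 genes of the naming rule were chosen for a call with all libraries and without Cimicifugae high replicate 3. Under the other alternatives run they kept their direction and call, except 3 that lost the call with only the compared libraries. No named gene reversed its direction. At the medium dose the count of 115 was 188 with no filter, 33 with only code set 5, 314 with only the compared libraries, 180 without both libraries that stood apart, and 53 to 73 with 1 library left out, below the full count whichever was left out. At the low dose the count of 28 was 617 with no filter, 147 with DESeq2, 0 with only code set 5, 2 with only the compared libraries, 0 without both libraries that stood apart and 0 to 388 with 1 library left out; only RLE scaling and leaving out mitochondrial genes kept it within 1.5 times. By edgeR 1656 genes were at an unadjusted p under 0.05 in code set 5 alone and 1176 without both libraries. The low-dose calls therefore rest on the settings used. The count of 1913 for the difference between doses was 496 with only code set 5, 128 with only the compared libraries, 428 without both libraries that stood apart, and 711 to 3009 with 1 library left out. It was 716 without Cimicifugae high replicate 3, 711 without Citri low replicate 3, 1162 without Cimicifugae low replicate 1 and 3009 without Cimicifugae high replicate 2. The cause of these changes was not tested.

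The groups share replicate numbers. Same-numbered high-dose libraries of the extracts deviated together with correlations of 0.007, 0.194 and 0.151, and 2 of 3 Citri libraries correlated best with their own number. For replicates 1, 2 and 3 the correlations were 0.079, 0.050 and 0.409 at the medium dose and 0.113, -0.068 and 0.143 at the low dose. The main fit did not take the numbers as pairs, and whether replicates of 1 number share an effect was not tested. With the replicate number as a block 2469 genes were called at the high dose, 154 at the medium dose, 206 at the low dose and 2510 for the difference between doses. With the block and only code set 5, chosen after seeing the data, the counts were 1410, 40, 0 and 1017. With 3 libraries per group, low genes such as NOG, CYP1A1 and ALDH3A1 rest on few counts. The counts of list members without Cimicifugae high replicate 3, given beside each list, were also chosen after seeing the data.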
